A study of Mus musculus with 12 samples.

Results

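The 10 genes described here carry out iron storage, uptake and export in mouse cells. They were taken by symbol from a hand-written list of iron-handling genes, whose selection rule uses no measured value but which was drawn up with earlier results of these data known, and all 10 of 10 listed symbols were among the 10697 genes measured. The cells were primary mouse adult fibroblasts (MAFs), which grew out of tissue biopsies of C57BL6/j mice (genotype WT) in high-glucose DMEM with fetal bovine serum. Of the 12 libraries, 6 came from cells given 100 µM thymol, a plant phenol dissolved in DMSO, for 24 h, and 6 from cells given the same volume of DMSO alone. The labels give no animal, age or sex for the libraries and do not say whether those of a group came from separate cultures, so every p-value below measures only the spread between these libraries.

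Iron enters most cells bound to transferrin through the transferrin receptor Tfrc, or as free ferrous iron through the transporter Slc11a2. What is not used is stored in a shell of ferritin heavy (Fth1) and light (Ftl1) chains, is freed again when Ncoa4 carries ferritin to autophagosomes, and leaves the cell through the exporter Slc40a1, called ferroportin. The iron regulatory proteins Aco1 and Ireb2 bind a short RNA hairpin, the iron-responsive element, when iron is scarce. Bound in a 5′ untranslated region they block translation, and bound in the 3′ untranslated region of Tfrc they protect the transcript from decay. Storage can therefore change at the level of protein while the transcript stays level, and transcripts were all that was measured here.

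A search for this hairpin covered the coding transcripts of GRCm38 in the basic set of GENCODE vM21, a part of those annotated. It found the hairpin in 4 of the 10 members. The motif, on the transcript strand, was a C, then 5 bases of any kind, the loop CAGTGN and 5 bases paired with the first 5 (G with U counted as a pair). The 29-base sites are shown because they divide the 4 members with a match into those with it before the coding sequence and Tfrc, with it after. Capitals mark the 6-base loop.
Fth1, 5′ untranslated region, chr19:9982732-9982760, plus strand: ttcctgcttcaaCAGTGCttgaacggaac
Ftl1, 5′ untranslated region, chr7:45459779-45459807, minus strand: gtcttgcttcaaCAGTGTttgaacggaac
Slc40a1, 5′ untranslated region, chr1:45925465-45925493, minus strand: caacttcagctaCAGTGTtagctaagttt
Tfrc, 3′ untranslated region, chr16:32631219-32631247, plus strand: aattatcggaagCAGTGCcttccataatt
Tfrc, 3′ untranslated region, chr16:32631598-32631626, plus strand: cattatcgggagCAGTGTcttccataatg
Tfrc, 3′ untranslated region, chr16:32631663-32631691, plus strand: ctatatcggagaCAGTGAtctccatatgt
Tfrc, 3′ untranslated region, chr16:32631710-32631738, plus strand: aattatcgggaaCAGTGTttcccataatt

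Tfrc held 4 matches, all in its 3′ untranslated region, and the other three genes 1 each. The Ftl1 match and each Tfrc match lay in 1 of 2 searched transcripts of the gene. The Fth1 match lay in 3 of 3 and the Slc40a1 match in 1 of 1. Among all genes of the table, 0.177% of 10183 with an annotated 5′ untranslated region held a match there and 0.826% of 10285 held one in the 3′ region. These regions differ in length between genes, so the shares are a description. A match is not a measured binding site. The lack of one in the other members says only that these letters are not in the untranslated regions of the transcripts searched. An element with an unpaired base among the 5 pairs would have been missed, so members without a match may still hold one.

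Levels are given as log2 CPM, the deposited log2 of read counts scaled to a common library total. The assay, QuantSeq, reads about 1 fragment per transcript at its 3′ end, so levels were compared between genes without division by length. The retained reads per library ranged from 5435985 to 9049796. The libraries labelled fibroblast held fibroblast and macrophage transcripts side by side. Of 14 fibroblast markers 12 were in the table, and their summed level was 11058 to 12246 CPM with DMSO and 10473 to 10856 with thymol. The table also held 14 of 15 macrophage markers, all but Cd163, and their summed level was 17620 to 19450 with DMSO and 17796 to 21271 with thymol. The collagens Col1a1 and Col3a1 and the macrophage integrin Itgam passed the test as lower with thymol. The fibroblast sums did not overlap between the groups, and the macrophage sums did. These sums mostly follow abundant genes such as Col1a1 (11.95 log2 CPM with DMSO) and Lyz2 (13.61). Single markers went both ways, from -0.54 log2 (Col3a1) to 0.64 (Fbln1) for fibroblasts and -0.31 (Itgam) to 0.21 (Cx3cr1) for macrophages. Of 6 skeletal muscle markers 2 were in the table, with summed levels of 132 to 159 CPM with DMSO and 92.6 to 125 with thymol, and Acta1, skeletal muscle actin, fell by 0.45 log2 (adjusted p = 5.0e-05 in limma). Of 6 erythroid markers only Hbb-bs was in the table, at 0.64 log2 CPM on average, and no lymphocyte marker was in it. The part of the cell mixture in the values below was not tested, and in bulk RNA fewer cells of a type and less RNA per cell cannot be told apart.

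None of the 10 members differed between thymol and DMSO past the threshold, 0 of 10 against 2.22% of all genes tested, 0.654% as higher and 1.57% as lower (limma, Benjamini-Hochberg adjusted p under 0.05 over all genes). Without adjustment 3 members passed in limma, all of them higher with thymol, namely Fth1, Ftl1 and Hmox1, where 11.8% of all genes passed in either direction and 5.35% as higher. Of the members 5 were higher and 5 lower, with a median difference of 0.021 log2, beside 0.0026 over all genes. The median size of the difference was 0.081 log2 for the members and 0.098 log2 for all genes. In no member did the 6 thymol libraries lie wholly above or below the 6 DMSO libraries, as they did in 1.68% of all genes.

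**Figure D1:**
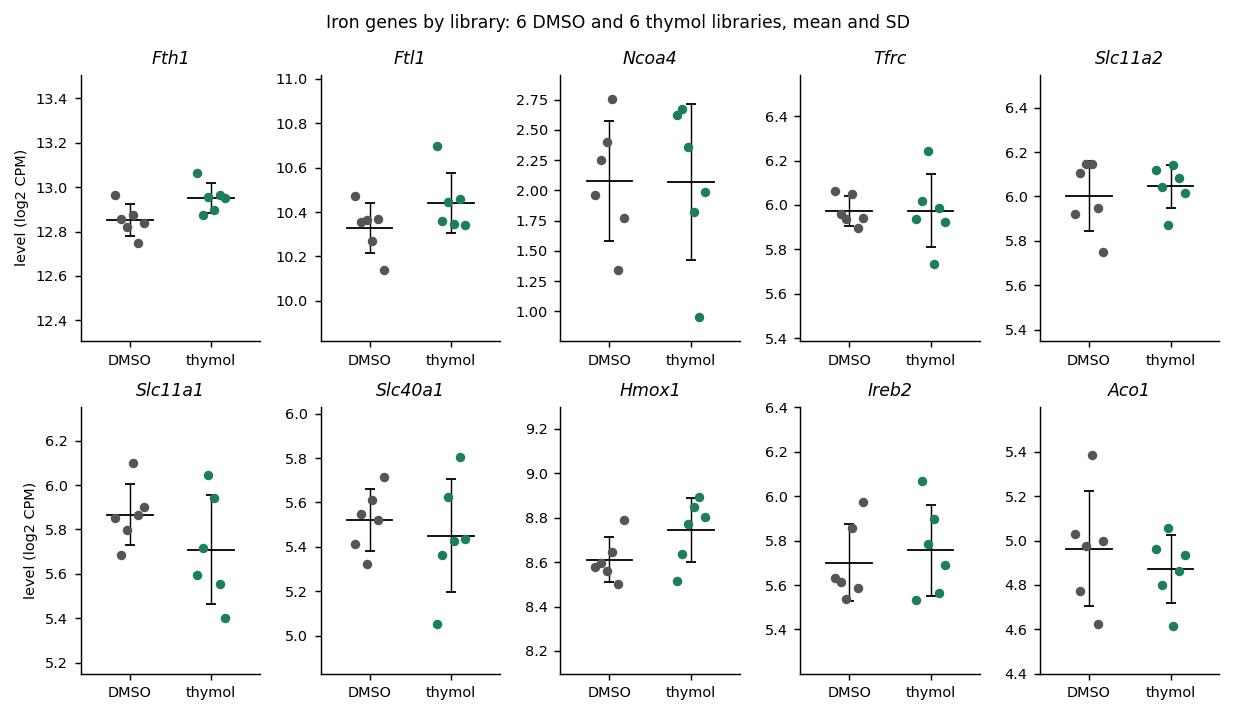
Level of each of the 10 iron genes (log2 CPM, vertical axis) in each library, with DMSO and thymol side by side, points for single libraries and bars for the mean ± SD of 6. The axes differ between panels, and the groups overlapped in all 10 genes.

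The storage genes stood at the top of the list. Fth1, the ferritin heavy chain, which oxidises ferrous iron as it enters the shell, lies on chromosome 19 (GRCm38, 9980598 to 9985098, plus strand). Its reads made up 0.689 to 0.791% of all retained reads with DMSO and 0.753 to 0.842% with thymol, and 99.9% of genes had a lower level. With DMSO the 6 libraries ran from 12.75 through a median of 12.85 to 12.97 log2 CPM, and with thymol from 12.87 through 12.95 to 13.06. All 6 thymol libraries lay above the DMSO mean and 1 above every DMSO library. Means were 12.85 ± 0.071 (SD, n = 6) for DMSO and 12.95 ± 0.066 (SD, n = 6) for thymol. The difference of 0.099 ± 0.044 log2 (SE), or 7.13% (95% confidence interval 0.774 to 13.9%), had an adjusted p of 0.326 in limma and an unadjusted exact two-sided permutation p of 0.0325. Fth1 was the only member under 0.05 by the permutation test, where 11% of all genes were. Without thymol library 1 its difference was 0.077 log2, the lowest of the 12 fits that each left out a library. Over these fits its adjusted p in limma ran from 0.203 to 0.569. Odd-numbered libraries alone gave 0.15 log2 and even-numbered libraries alone 0.050, and whether these differ was not tested for Fth1 or for any gene below.

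Ftl1, the ferritin light chain, which helps the iron core form, lies on chromosome 7 (45457944 to 45459884, minus strand). Its DMSO libraries ran from 10.14 through a median of 10.36 to 10.47 log2 CPM and its thymol libraries from 10.34 through 10.40 to 10.70. As for Fth1, all 6 thymol libraries lay above the DMSO mean and 1 above every DMSO library. The difference was 0.11 ± 0.053 log2 (SE, adjusted p = 0.368 in limma, exact permutation p = 0.173), or 8.22% (95% interval 0.517 to 16.5%). Without thymol library 1 it was 0.063 log2 (adjusted p = 0.683 in limma). With each library centred on its median neither ferritin gene passed in limma before adjustment, and with quantile normalization Ftl1 did not. A stretch of at least 65 bases from the last 300 of Ftl1 was found, at 95% identity or more, in 12 other annotated genes, none of which was in the table. Among them were 3 named ferritin light chain pseudogenes, 3 Mir692 genes and Gm22133, a microRNA annotated inside an exon of Ftl1 itself. Reads from such a stretch and from Ftl1 may not have been told apart in counting, and the same holds for 1 gene each with a stretch of Fth1 or Slc11a1.

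The differences of the ferritin chains were of like size, and the ratio of the chains overlapped between the groups. Fth1 exceeded Ftl1 by 2.52 ± 0.11 log2 with DMSO (SD, range 2.38 to 2.70) and by 2.51 ± 0.080 with thymol (2.37 to 2.61). In reads, that was between 5.16 Fth1 reads per Ftl1 read, in thymol library 1, and 6.49, in DMSO library 6. This is a ratio of counted reads, and the part of the near-identical copies of Ftl1 in it was not tested.

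**Figure D2:**
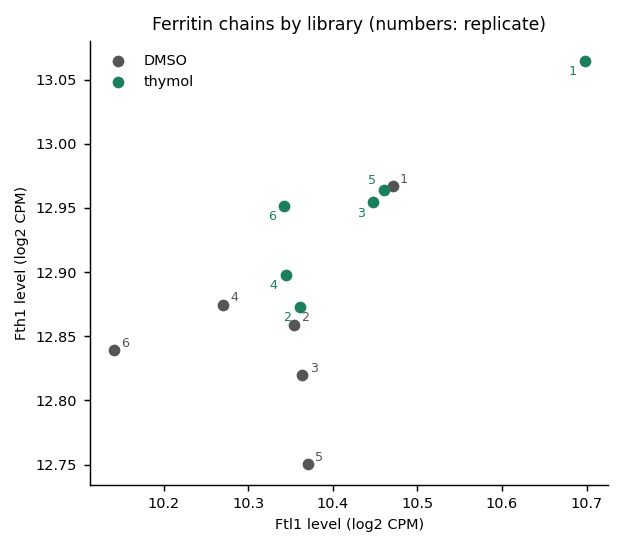
Fth1 against Ftl1 (log2 CPM on both axes), 1 point per library with its number, DMSO and thymol in separate colours. The thymol libraries overlap the DMSO libraries on both axes, and thymol library 1 stands highest on both, at 13.06 and 10.70.

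Hmox1, heme oxygenase 1, which opens the heme ring and frees its iron, is a classical target of the oxidative stress factor Nrf2. It lies on chromosome 8 (75093621 to 75100589, plus strand). It had the smallest limma p of the members. Its DMSO libraries ran from 8.50 through a median of 8.59 to 8.79 log2 CPM, and its thymol libraries from 8.51 through 8.79 to 8.89. Of the thymol libraries 5 lay above the DMSO mean and 3 above every DMSO library, while thymol library 1, at 8.51, lay near the bottom of the DMSO range. Means were 8.61 ± 0.10 (SD, n = 6) for DMSO and 8.74 ± 0.14 (SD, n = 6) for thymol. The difference was 0.13 ± 0.058 log2 (SE, adjusted p = 0.318 in limma, exact permutation p = 0.0996), or 9.65% (95% interval 1.11 to 18.9%). Without thymol library 1 it was 0.18 log2 with an adjusted limma p of 0.069. Odd-numbered libraries gave 0.18 log2 and even-numbered libraries 0.087.

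The genes whose levels followed Hmox1 most closely, over 12 libraries after the group means were subtracted and among 5393 genes with a mean of at least 5 log2 CPM, were Arf5 (Pearson r 0.94), Zswim8 (0.93), Tpra1 (0.92), Anp32a (0.92) and Nab2 (0.91). They are given as a description, since the libraries share depth and scaling. None of the 5 differed between the groups past the threshold, and their differences lay between -0.032 and 0.062 log2.

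The uptake genes showed no difference that these libraries could resolve. Tfrc, the transferrin receptor, on chromosome 16 (32608920 to 32632794, plus strand), averaged 5.97 log2 CPM in both groups. Its DMSO libraries ran from 5.90 through a median of 5.95 to 6.06, and its thymol libraries from 5.73 through 5.96 to 6.24. The thymol libraries held both its lowest and its highest value. The 95% interval of the change, -11.6 to 13.0%, was centred close to 0 (adjusted p = 1.00 in limma). Odd-numbered libraries gave 0.090 log2 and even-numbered libraries -0.091, so that its sign turned with the numbering.

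Slc11a2, the divalent metal transporter, on chromosome 15 (100387898 to 100425072, minus strand), had DMSO libraries from 5.75 through a median of 6.02 to 6.15 and thymol libraries from 5.87 through 6.06 to 6.14 log2 CPM. The thymol range lay inside the DMSO range. The change was 3.03% (95% interval -8.81 to 16.4%, adjusted p = 0.926 in limma).

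Slc11a1, a relative of Slc11a2 that moves metal out of the phagosome of macrophages and neutrophils, lies on chromosome 1 (74375195 to 74386062, plus strand). It had the lowest difference among the members. Its DMSO libraries ran from 5.68 through a median of 5.86 to 6.10 log2 CPM, and its thymol libraries from 5.40 through 5.66 to 6.05. Of the thymol libraries 3, numbers 1, 5 and 6, lay below every DMSO library, and number 3 lay at 6.05, near the top of the DMSO range. The difference was -0.16 ± 0.10 log2 (SE), or -10.3% (95% interval -22.0 to 3.14%, adjusted p = 0.596 in limma). Slc11a1 is a gene of phagocytes, and the single macrophage markers differed in both directions, from -0.31 log2 for Itgam to 0.21 for Cx3cr1. The part of macrophages in the level of Slc11a1 was not tested.

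The exporter Slc40a1, on chromosome 1 (45908068 to 45926523, minus strand), is the only known route for iron out of a mammalian cell and is abundant in macrophages that recycle red cells. Its DMSO libraries ran from 5.32 through a median of 5.53 to 5.71 log2 CPM. Its thymol libraries spread wider, from 5.05 in number 1 through 5.43 to 5.80 in number 5. The change was -4.76% (95% interval -18.1 to 10.7%, adjusted p = 0.891 in limma). Its sign also turned with the numbering, at 0.075 log2 in odd-numbered and -0.22 in even-numbered libraries.

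Of the iron regulatory proteins, Ireb2 lies on chromosome 9 (54863789 to 54912530, plus strand) and is itself degraded when iron is plentiful. It ran from 5.54 through a median of 5.62 to 5.97 log2 CPM with DMSO and from 5.53 through 5.74 to 6.07 with thymol, a change of 3.98% (95% interval -9.61 to 19.6%, adjusted p = 0.914 in limma). Aco1 lies on chromosome 4 (40143081 to 40198338, plus strand) and switches between an RNA-binding form and a cytosolic aconitase that holds an iron-sulfur cluster. It ran from 4.62 through 4.99 to 5.38 with DMSO and from 4.62 through 4.90 to 5.06 with thymol, a change of -6.11% (95% interval -21.2 to 11.9%, adjusted p = 0.872 in limma). The ranges of both genes overlapped over most of their length. The difference of Aco1, -0.091 log2 over all libraries, was 0.085 in odd-numbered and -0.27 in even-numbered libraries. Without DMSO library 4 it was -0.0070 and without DMSO library 5 it was -0.16.

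Ncoa4, the cargo receptor that takes ferritin into autophagosomes, lies on chromosome 14 (32159865 to 32179855, plus strand) and was close to the limit of the table. Its reads per library numbered 14 to 43 with DMSO and 15 to 38 with thymol, and 1.5% of genes had a lower level. Its DMSO libraries ran from 1.34 through a median of 2.10 to 2.75 log2 CPM, and its thymol libraries from 0.96 through 2.17 to 2.68. The lowest value of each group came from library number 5. The 95% interval of the change ran from -37.1 to 57.4% (adjusted p = 0.998 in limma), so these libraries leave its size and sign undetermined within those limits.

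**Figure D3:**
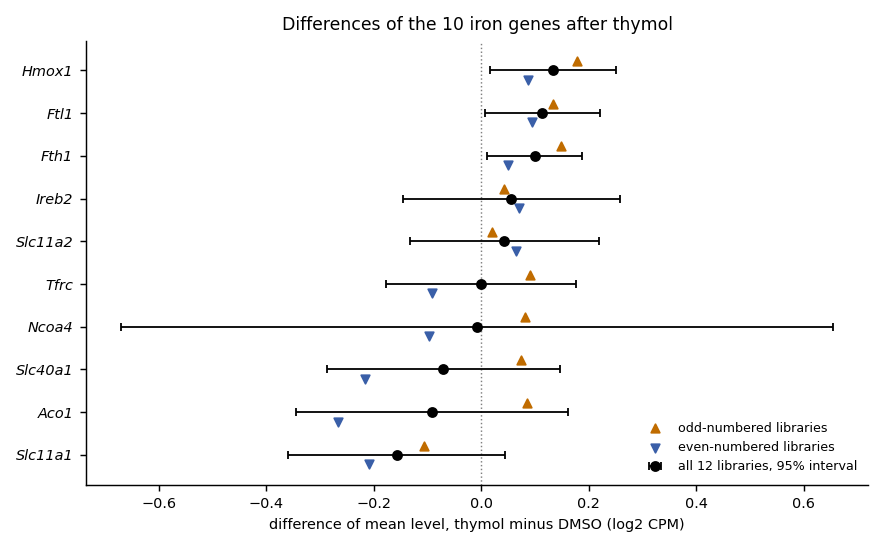
Difference of the group means (thymol minus DMSO, log2 CPM, horizontal axis) of each member over all 12 libraries with its 95% confidence interval from limma (circles and bars), and the same difference in the odd-numbered (upward triangles) and even-numbered libraries (downward triangles). The intervals of Fth1, Ftl1 and Hmox1 lie above 0 before adjustment, the other 7 include 0, and that of Ncoa4, from -0.67 to 0.65, is the widest.

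In order of level in counted reads, Fth1 (7661 CPM), Ftl1 (1343) and Hmox1 (411) lay far above the rest. Each of them exceeded the next in 12 of 12 libraries. Fth1 exceeded Ftl1 by 2.52 ± 0.094 log2, Ftl1 exceeded Hmox1 by 1.71 ± 0.22 and Hmox1 exceeded Slc11a2 by 2.65 ± 0.20 (SD over 12 libraries). From Slc11a2 through Tfrc (62.8 CPM), Slc11a1 (55.5), Ireb2 (53.1) and Slc40a1 (44.9), neighbours differed by 0.050 to 0.24 log2, about their own SD of 0.20 to 0.24 or less, and the gene placed higher was so in 8 to 11 of 12 libraries. Aco1 (30.2) lay below Slc40a1 in all 12 libraries, and Ncoa4 (4.19) lay 2.84 ± 0.48 log2 below Aco1.

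Beyond the members, 68 of 86 genes in 7 hand-written lists of iron, heme and iron-sulfur metabolism were in the table, 34 of them higher with thymol and 34 lower, with a median difference of -0.0022 log2. A single gene passed the threshold, 1 of 68 against 2.22% of all genes in either direction. It was Trf, transferrin, the serum protein that carries iron to Tfrc, which fell. With DMSO it ran from 7.28 through a median of 7.30 to 7.40 log2 CPM and with thymol from 6.90 through 7.05 to 7.23, and all 6 thymol libraries lay below every DMSO library. The difference was -0.25 ± 0.066 log2 (SE), or -15.9% (95% interval -23.3 to -7.82%), with an adjusted limma p of 0.0239. The exact two-sided permutation p was 0.00216, the smallest that 6 against 6 libraries can give. It was -0.24 log2 in odd-numbered and -0.26 in even-numbered libraries. The call was close to the threshold. Left out in turn, DMSO library 3 or 4 gave an adjusted limma p of 0.0667 or 0.0585, and thymol library 3 or 6 one of 0.0674 or 0.106. Without the mean-variance trend it was 0.154. The odd or even libraries alone did not give the call, at an adjusted limma p of 0.427 and 0.196.

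In the list of uptake and ferrireduction genes, 11 of 16 were in the table, with 6 higher and 5 lower. Beside Trf, the ferrireductase Steap3, which reduces transferrin iron in the endosome, had the next smallest p, at 3.76 log2 CPM with DMSO and 4.15 with thymol (adjusted p = 0.315 in limma). Snx3, which recycles the transferrin receptor, had the highest level and averaged 8.05 log2 CPM in both groups. Of 9 genes of export and ferroxidase activity only 3 were in the table. App, the amyloid precursor protein, which has been linked to ferroportin at the membrane, had 9.88 ± 0.070 with DMSO and 9.73 ± 0.039 with thymol. Its difference of -0.16 ± 0.046 log2 (SE) just missed the threshold (adjusted p = 0.053 in limma), with 5 thymol libraries below every DMSO library. Of the 12 fits that each left out a library it passed only in the one without DMSO library 1. Over these fits the adjusted p in limma ran from 0.0335 to 0.142, the latter without DMSO library 4. It was 0.0311 with each library centred on its median, 0.158 with quantile normalization and 0.296 without the mean-variance trend. The ferroxidase Heph had fewer reads, a mean of 41.2 with DMSO and 28.5 with thymol (adjusted p = 0.722 in limma).

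All 7 genes of iron chaperones and sensing were in the table, 5 higher and 2 lower. Glrx3, a glutaredoxin that handles iron-sulfur clusters, had 6.36 log2 CPM with DMSO and 6.58 with thymol (adjusted p = 0.245 in limma), and Usp35, a deubiquitinase, had 2.28 and 2.99 (adjusted p = 0.211). Pcbp2, an iron chaperone and the most abundant of the list, stood at 8.68 and 8.70. Of 9 genes for heme capture, transport and breakdown in the table, 3 were higher and 6 lower. The biliverdin reductases, which act after Hmox1, differed in sign, with 0.14 log2 for Blvrb (adjusted p = 0.467 in limma) and -0.14 for Blvra (adjusted p = 0.606). Lrp1, the receptor for heme-bound hemopexin and the most abundant of the list, had 9.40 and 9.42 log2 CPM.

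The table held 11 heme synthesis genes, of which 7 were higher and 4 lower. Fech, which puts iron into the ring, had 5.56 and 5.78 (adjusted p = 0.295 in limma). Tmem14c, a heme synthesis transporter of mitochondria, had the highest level, 7.22 and 7.14.

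Among 18 mitochondrial iron and iron-sulfur genes found, 10 were higher and 8 lower. The scaffold Iscu differed by 0.28 log2 (adjusted p = 0.548 in limma). The chaperone Hspa9, the most abundant, had 8.23 and 8.28 log2 CPM. Of the 9 genes of cytosolic iron-sulfur assembly 2 were higher and 7 lower. The scaffold Nubp1 differed by -0.25 log2 (adjusted p = 0.357 in limma) and its partner Nubp2 by 0.16 (adjusted p = 0.647). Ciapin1, the most abundant, had 6.21 and 6.10.

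**Figure D4:**
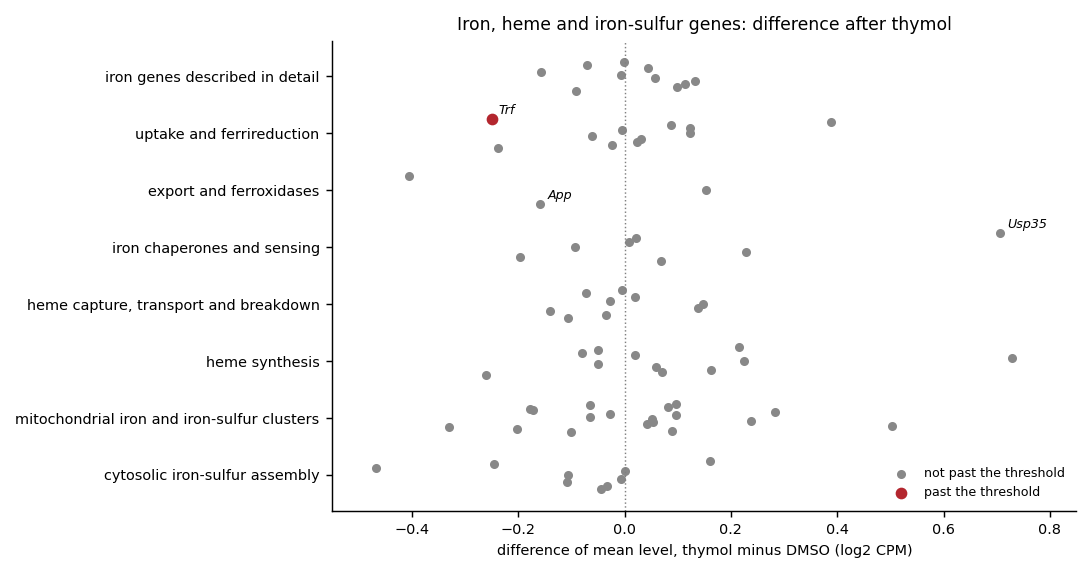
Difference of the group means (thymol minus DMSO, log2 CPM, horizontal axis) of each gene in the members' list and the 7 wider lists, 1 point per gene and 1 row per list, red where past the threshold. Trf, App and Usp35 are named, and Trf is the only gene past the threshold, at -0.25.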

How the data were processed

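RNA of mouse adult fibroblasts, as 6 libraries with thymol and 6 with DMSO, was sequenced at the 3′ end with QuantSeq. The authors aligned the reads to GRCm38 with STAR 2.5.3, counted them per gene with HTSeq-count 0.6.1, dropped genes that did not reach 30 reads in 6 samples or more, and normalised by TMM (trimmed mean of M-values). The deposited values were log2 CPM with a prior count, 1.96 reads in a library of average size, which shrinks the differences of genes with few reads. Undoing the logarithm gave whole reads for 100% of the values under 200 reads (within 0.02 of a whole number), and so the depth. These reads are PCR products, so depth speaks of counting error only.

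Here the deposited log2 values were fitted with limma 3.58.1 in R 4.3.3 (eBayes with trend, 2 groups, no covariate), after a test on simulated data. The p-values were two-sided and Benjamini-Hochberg adjusted over 10697 genes, with a threshold of 0.05. Exact permutation tests used all 924 assignments of the libraries to 2 groups of 6. Named genes were the 10 members, from each wider list those past the threshold, the 2 smallest p and the highest level, and the 5 genes most correlated with the member of smallest p, and 2 genes that this rule names are not reported here. The members and lists were chosen with earlier results of these data known, and so was the split into odd and even library numbers, which the labels do not call a batch. Alternatives changed scaling, variance trend, pseudocount, filter, test, block and libraries. Coordinates and untranslated regions came from GENCODE vM21.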

Additional observations from a re-analysis of the deposited data

Results flagged for a closer look

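In 44 groups of 6 libraries, 2 for each of the 22 genes examined, 2 held a library whose gap to the nearest other, divided by the range of the group, was above the 95% critical value of Dixon's test, and chance gives about 1 in 20. For the ferritin light chain Ftl1 it was thymol library 1, at 10.70 log2 CPM with the next at 10.46. For the ferrireductase Steap3 it was thymol library 6, at 3.70 log2 CPM with the next at 4.15.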

How the results depend on the processing

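The count of members past the threshold was 0 under every alternative planned and without each library in turn, with 0 to 3 passing before adjustment over the alternatives and 1 to 3 over the left-out libraries. The count of wider iron genes past it, 1, was 2 (Trf and App) with each library centred on its median, with genes of a mean of at least 5 only (31 wider genes and 8 members left), in voom on the recovered reads, with the replicate number as a block and with odd or even numbering as a covariate. It was 0 without the variance trend and in odd-numbered or even-numbered libraries alone, and 0 to 2 without 1 library. The exact permutation test, added after the data were seen, also gave 0 for both counts. Its smallest adjusted p over all genes was 0.129, so no gene of the table passed, and these counts say nothing about stability. The causes were not tested. Of the pairs with the same replicate number, 2 of 6 had deviations correlated above 0.1, with 0.27 for number 1 and 0.11 for number 4. Of the libraries, 3 of 12 correlated best with their own number. These counts cannot decide whether the libraries were paired. With the replicate number as a block 332 of all genes passed, against 238. That count was 57 without the trend, 70 in odd-numbered and 167 in even-numbered libraries, and 172 to 270 without 1 library. Differences that turned sign were those of Ncoa4 (0.065 log2 with quantile normalization, 0.0066 with a pseudocount of 10, 0.082 in odd-numbered libraries), Tfrc (0.00020 with the pseudocount, 0.0026 in voom, 0.090 in odd-numbered libraries) and, in odd-numbered libraries, Slc40a1 (0.075), Aco1 (0.085) and Heph (0.31). Without 1 library, Tfrc ran from -0.054 to 0.047, Slc40a1 from -0.14 to 0.0091, Slc11a1 from -0.22 to -0.095, Aco1 from -0.16 to -0.0070, Slc11a2 from -0.0071 to 0.078, Ireb2 from -0.0057 to 0.11 and Ncoa4 from -0.16 to 0.22. Of the 10 members Ncoa4 had the fewest reads, 14 to 43 per library.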

Other observations

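The hairpin searched for in the members was also found in other genes of the table, and these did not share a direction. In the 5′ untranslated region it was found in 15 non-members, of which 10 were higher with thymol and 5 lower, with a median difference of 0.044 log2. None of the 15 passed the threshold (limma, adjusted over all genes), and 2 of 15 passed before adjustment, where 11.8% of all genes did. Nasp, a histone chaperone, had the smallest p of this set, at 6.00 and 6.27 log2 CPM (adjusted p = 0.0978 in limma). In the 3′ region it was found in 84 non-members, of which 44 were higher and 40 lower, with a median difference of 0.0052 log2, and 11 of 84 passed before adjustment, a share near the 11.8% of all genes. A single gene of these passed the threshold, 1 of 84 against 2.22% of all genes. It was Trem1, a receptor of myeloid cells that amplifies inflammatory signals, which fell from 4.23 ± 0.28 log2 CPM with DMSO to 2.42 ± 0.83 with thymol (adjusted p = 1.6e-06 in limma), with all 6 thymol libraries below every DMSO library. Nasp and Trem1 were named after their values were seen.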
